A study of Mus musculus with 28 samples.

Results

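Newborn hearts of mice with the Y334C change in Sepsecs were compared with newborn control hearts, in 6 of the 28 RNA libraries of the series. The 6 were chosen by their labels as heart libraries of postnatal day 1, 3 of them labelled Y334C MT (mutant) and 3 labelled Y334C WT (control). All 6 came from the strain C57BL/6J, and no treatment is named for either group. The labels do not give the zygosity of the mutants or the sex of the mice, and say nothing of litters. Per the series title, the change is a human missense variant, and mutant pups die around birth of cardio-respiratory failure. The tissue was bulk heart, so fewer cells of a type and less RNA per cell cannot be told apart in any value given here.

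Selenocysteine, the selenium-containing amino acid, is built on its own tRNA. Seryl-tRNA synthetase (Sars) loads the tRNA with serine, the kinase Pstk adds a phosphate, and Sepsecs exchanges that phosphate for selenium from selenophosphate, which Sephs2 makes. The ribosome then places selenocysteine at a UGA codon, a codon that otherwise ends translation, with the help of the SECIS element of the mRNA and the factors Secisbp2 and Eefsec. When selenocysteine is short, some selenoprotein mRNAs are known to be degraded as if their UGA were a premature stop, and others are known to be kept. In heart, selenoproteins remove peroxides and keep protein thiols reduced, and selenium deficiency is a known cause of heart muscle disease.

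Expression was measured with 3′-end tags, so a gene's value is the number of reads from the end of its mRNA, given here as CPM, which puts the counts of all libraries on 1 scale with the trimmed mean of M values (TMM). The library totals were 4836866 to 7239310 counts, so 1 count was 0.138 to 0.207 CPM. The 10 cardiomyocyte marker genes summed to 57537, 58142 and 58430 CPM in controls 1, 2 and 3 and to 48117, 58862 and 50292 CPM in mutants 1, 2 and 3, which fits the heart label. The libraries were not alike in other ways. Lung and airway markers (19 genes) summed to 5725, 2217 and 233 CPM in the controls and 257, 874 and 289 CPM in the mutants, and cartilage markers (15 genes) to 295, 339 and 110 CPM against 125, 68.7 and 81.2 CPM. The first passage of the labels' protocol names TRIzol for controls 1 and 2 and an RNeasy kit for control 3 and all 3 mutants, while a second passage names TRIzol for all. Xist, expressed from the inactive X chromosome of females, was at 0.653, 309 and 0.160 CPM in the controls and 202, 107 and 310 CPM in the mutants. Controls 1 and 3 were thus male-like, while control 2 and the mutants were female-like. The first principal component, with 38.9% of the variance, set control 1 and mutant 2 apart from the other libraries. Kit, sex and carried-over tissue thus differ between the groups, each with 1 control like the mutants in kit (control 3) or in Xist (control 2), and their part in the results was not tested. For the main gene groups, the values from the RNeasy libraries alone and from the libraries with Xist alone, each with the 3 mutants and 1 control, are therefore given as well. The RNeasy set keeps control 3, which differs from the mutants in Xist. The Xist set keeps control 2, which differs from them in kit label and carried-over tissue. Neither set can therefore tell these differences apart.

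**Figure D1:**
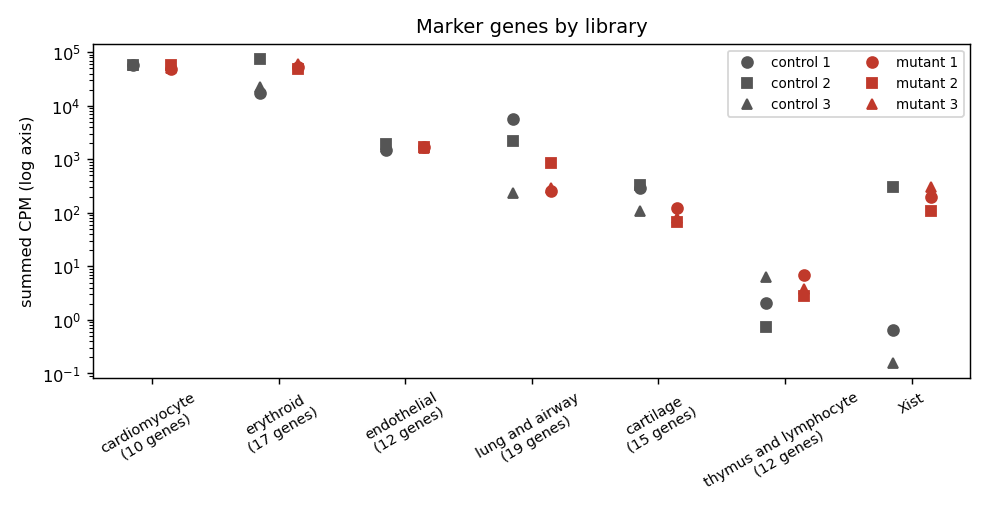
Summed CPM of each marker list (log axis) and CPM of Xist in the 3 control and 3 mutant hearts, 1 point per library. Cardiomyocyte sums lie between 48117 and 58862 CPM in all 6 libraries, while lung and airway sums are highest in controls 1 and 2, at 5725 and 2217 CPM.

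No gene passed an adjusted p of 0.05 among the 12876 genes tested with the edgeR quasi-likelihood test and Benjamini-Hochberg adjustment, so percent called was 0. At an unadjusted p under 0.05 there were 326 genes (2.53%), of which 145 (1.13%) were higher in the mutants and 181 (1.41%) were lower. In 423 genes (3.29%) all 3 mutants lay above all 3 controls, and in 409 (3.18%) all 3 lay below, which makes 832 genes (6.46%) whose groups did not overlap. The median log2 difference over all genes tested was −0.01, with 48.6% of genes higher and 51.4% lower. The limma-voom test called 0 genes. DESeq2 called 10 of 12873 genes (0.0777%), 2 higher (0.0155%) and 8 lower (0.0621%), with adjusted p from 1.57e-05 to 0.0281. The lower genes included Selenow, Selenoh, Igfbpl1, Apln and the carry-over genes Scgb3a1, Col2a1 and Col9a3, and the 2 higher genes were Asns and 2210408F21Rik. Each of these named genes also had an adjusted p of 1 in at least 1 alternative analysis. Differences of single genes are given as log2 values, mutants minus controls, with the standard error (SE) and the unadjusted edgeR p.

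Sepsecs itself was at 9.54, 13.1 and 9.77 CPM in controls and 11.5, 11.2 and 11.5 CPM in mutants. The groups overlapped, and the log2 difference of 0.08 ± 0.29 (SE, unadjusted p = 0.782) was smaller than its error. Tags are read from the mRNA end and not at the Y334C codon, so this level does not check the genotype labels.

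Selenow and Selenoh had the smallest p-values of all genes. Selenow (ENSMUSG00000041571, chr7:15917208-15922402, minus strand), a small thioredoxin-like selenoprotein abundant in muscle, was at 86.6, 50.1 and 55.2 CPM in controls and 16.4, 19.7 and 15.1 CPM in mutants. Every mutant was below every control, a 3.76-fold lower level (log2 difference −1.91 ± 0.29, SE, unadjusted p = 4.57e-05). Selenoh (ENSMUSG00000076437, chr2:84669215-84670770, minus strand), a redox protein of the nucleolus, was at 59.6, 52.7 and 80.9 CPM in controls and 22.1, 23.4 and 18.4 CPM in mutants. The groups again did not overlap, at a 3.02-fold lower level (−1.60 ± 0.26, unadjusted p = 9.15e-05). The edgeR adjusted p was 0.589 for both genes. With DESeq2 it was 1.57e-05 for Selenow and 0.000202 for Selenoh, and over the alternatives it ranged from 2.24e-06 to 1 and from 0.000202 to 1. Selenow was −1.69 in the RNeasy libraries alone and −1.57 in the libraries with Xist alone, and Selenoh was −1.92 and −1.32. On the same strand, Selenoh overlaps the gene model Gm28635, and no source used here says how reads shared by both were counted.

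The codons that need selenocysteine are shown for 7 selenoprotein mRNAs, because a stop codon well before the last exon junction is a known mark of mRNAs open to decay. Each line runs 5′ to 3′ along the coding sequence of GENCODE M21 (GRCm38), with the UGA codon in capitals as TGA and 30 bases on either side.
Selenow: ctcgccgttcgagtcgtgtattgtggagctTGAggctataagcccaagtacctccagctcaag
Selenoh: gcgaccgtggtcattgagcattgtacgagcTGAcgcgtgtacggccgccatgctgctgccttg
Gpx1: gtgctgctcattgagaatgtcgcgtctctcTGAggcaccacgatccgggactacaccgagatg
Gpx3: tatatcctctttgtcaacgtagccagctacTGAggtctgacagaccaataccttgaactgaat
Gpx4: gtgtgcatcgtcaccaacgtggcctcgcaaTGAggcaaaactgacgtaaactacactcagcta
Msrb1: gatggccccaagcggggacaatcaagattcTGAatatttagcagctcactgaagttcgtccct
Sephs2: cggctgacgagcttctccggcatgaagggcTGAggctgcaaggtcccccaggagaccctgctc
In Selenow the codon is number 13 of 88 (chr7:15920464-15920466, minus strand) and lies 243 bases before the last exon junction. In Selenoh it is number 38 of 116 (chr2:84670381-84670383, minus strand), 136 bases before that junction. The distance is 105 bases in Gpx1 (codon 47 of 201, chr9:108339451-108339453), 240 in Gpx3 (codon 73 of 226, chr11:54907256-54907258) and 342 in Gpx4 (codon 73 of 197, chr10:80054737-80054739). It is 34 bases in Msrb1 (codon 95 of 116, chr17:24740158-24740160), and the coding sequence of Sephs2 (codon 63 of 452) has a single exon.

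The mRNAs of Selenow, Selenoh, Gpx1, Gpx3 and Msrb1 are known to follow selenium supply, and 4 of these 5 were lower in the mutants, with a median log2 difference of −0.97 against −0.01 over all genes. The same median was −0.29 in the RNeasy libraries alone and −1.29 in the libraries with Xist alone. Gpx3, the secreted glutathione peroxidase of plasma, was at 467, 518 and 262 CPM in controls and 120, 370 and 150 CPM in mutants. Mutant 2 overlapped the controls, and the log2 difference was −0.97 ± 0.41 (SE, unadjusted p = 0.041). It was −0.29 in the RNeasy libraries alone, where control 3 was the lowest control. Gpx1, the abundant cytosolic glutathione peroxidase, was at 595, 993 and 616 CPM in controls and 325, 600 and 620 CPM in mutants. Only mutant 1 stood below the controls, and the difference of −0.51 ± 0.30 (unadjusted p = 0.12) did not pass. Msrb1, which repairs oxidised methionine in proteins, was at 54.3, 52.1 and 48.5 CPM in controls and 45.8, 66.1 and 58.2 CPM in mutants, with overlapping groups (0.13 ± 0.23).

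**Figure D2:**
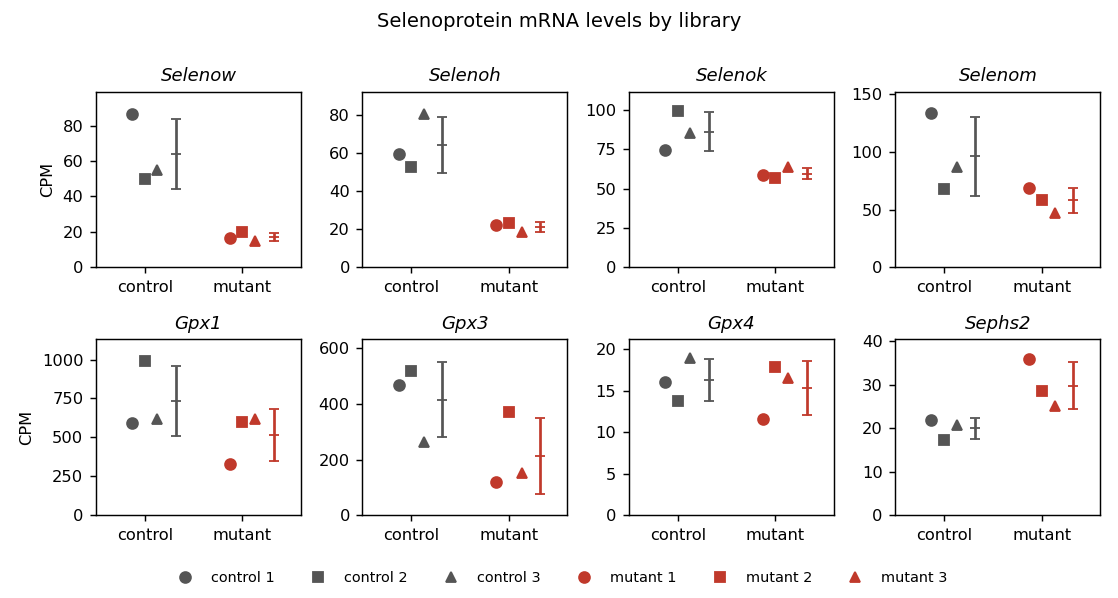
TMM-scaled CPM (linear axes from 0) of 8 selenoprotein mRNAs in each library, controls 1 to 3 and mutants 1 to 3, with bars for the mean ± SD of each group (n = 3). Selenow and Selenoh separate the groups with no overlap, at 50.1 to 86.6 against 15.1 to 19.7 CPM and 52.7 to 80.9 against 18.4 to 23.4 CPM, while Gpx4 spans 13.8 to 18.9 and 11.6 to 17.9 CPM.

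Gpx4, the phospholipid hydroperoxidase that guards against ferroptosis, was at 16.1, 13.8 and 18.9 CPM in controls and 11.6, 17.9 and 16.5 CPM in mutants. The groups overlapped, with a log2 difference of −0.09 ± 0.28 (SE, unadjusted p = 0.767) whose sign changed in 4 alternatives. The pseudogene Gpx4-ps2 may share its reads, so this level is uncertain. The thioredoxin reductases, which recharge thioredoxin, were close to 0 or above it: Txnrd1 (cytosol) −0.01 ± 0.35, Txnrd2 (mitochondria) 0.29 ± 0.26 and Txnrd3 0.09 ± 0.26. Txnrd1 changed sign with the library choice, to 0.55 with Xist level as a covariate and 0.59 in the libraries with Xist alone. Selenop, the plasma carrier of selenium, was at 104, 212 and 129 CPM in controls and 138, 172 and 184 CPM in mutants, and also changed sign, from 0.15 ± 0.28 to −0.37 in the libraries with Xist alone. Dio2, which activates thyroid hormone, was low and overlapping (−0.55 ± 0.52). Selenoi, an enzyme of phospholipid synthesis, was −0.21 ± 0.26 and the mitochondrial Selenoo 0.41 ± 0.36, and both changed sign in some alternatives.

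Of the 6 selenoproteins of the endoplasmic reticulum, 5 were lower, with a median of −0.46. Selenok, a membrane protein of this compartment, was at 74.5, 99.4 and 85.2 CPM in controls and 58.4, 56.7 and 63.7 CPM in mutants. The groups did not overlap, at a 1.45-fold lower level (−0.53 ± 0.22, SE, unadjusted p = 0.034), although 6 Selenok pseudogenes in the annotation make its counts uncertain. Selenom, a thioredoxin-like protein of the lumen, was at 134, 67.8 and 86.6 CPM in controls and 68.6, 58.1 and 47.3 CPM in mutants, and mutant 1 passed control 2 (−0.73 ± 0.29, unadjusted p = 0.0292). In the libraries with Xist alone the Selenom difference was −0.24. Selenon, whose loss causes a congenital muscle disease, was −0.47 ± 0.31, Selenot −0.44 ± 0.38 and Selenof −0.31 ± 0.31, all with overlapping groups. Selenos, part of the degradation pathway for misfolded proteins, was 0.22 ± 0.21.

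Across all 24 selenoprotein genes, 20 were tested, 7 of them higher and 13 lower in the mutants, and their median was −0.26. The median stayed between −0.30 and −0.16 over the alternatives. Of the 20, 3 lay below all controls in every mutant (Selenow, Selenoh and Selenok) and 1 lay above (Sephs2), and 5 lower and 1 higher had an unadjusted p under 0.05. For comparison, 3.18% of all genes tested lay below and 3.29% above, and 1.41% were lower and 1.13% higher with such a p. The remaining 4 selenoprotein genes were too low to test: Gpx2 had 10, 4 and 2 counts in the controls and 0 in each mutant, Dio1 and Dio3 had at most 3 counts in any library, and Selenov had none. Sorted by codon place, 11 tested genes have their first selenocysteine codon more than 50 bases before the last exon junction. Of these 9 were lower and 2 higher (median −0.47), with a range from −1.91 (Selenow) to 0.29 (Txnrd2). Of the other 9, with a single exon or the codon nearer to the last junction or beyond it, 4 were lower and 5 higher, with a median of 0.09. Gpx4 and Selenop were among the 11 and stood near 0, while Selenok, 5 bases before its last junction, was lower, so codon place did not sort the genes completely.

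**Figure D3:**
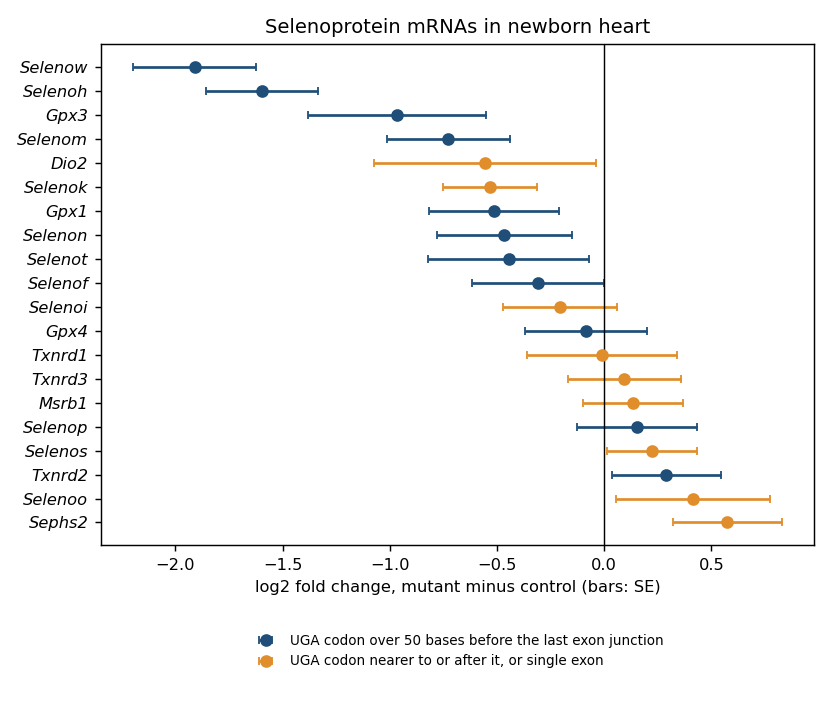
Log2 difference (mutants minus controls) of each tested selenoprotein mRNA with its SE, ordered by size and marked by the place of the first selenocysteine codon. The 11 genes with a codon more than 50 bases before the last exon junction run from −1.91 (Selenow) to 0.29 (Txnrd2), and Sephs2, with a single coding exon, is highest at 0.57.

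Of the 10 genes that make, insert or recycle selenocysteine, 6 stood higher and 4 lower (median 0.03). Sephs2, both a selenoprotein and the enzyme that makes the selenium donor, was at 21.8, 17.3 and 20.8 CPM in controls and 35.8, 28.5 and 25.1 CPM in mutants. All mutants were above all controls, at a 1.49-fold higher level (log2 difference 0.57 ± 0.26, SE, unadjusted p = 0.047). Scly, the lyase that recovers selenium from selenocysteine, was at 5.10, 5.89 and 4.16 CPM in controls and 7.77, 7.32 and 7.56 CPM in mutants, without overlap (0.58 ± 0.33, unadjusted p = 0.109). Sars was at 81.4, 56.7 and 69.2 CPM in controls and 81.7, 103 and 86.5 CPM in mutants, and mutant 1 exceeded control 1 by a small margin (0.39 ± 0.23, unadjusted p = 0.121). Pstk stood at 20.3 to 29.6 CPM in controls and 23.5 to 25.6 CPM in mutants. Secisbp2, at 15.4 to 21.4 and 15.1 to 18.4 CPM, and Eefsec, at 3.68 to 7.73 and 4.27 to 5.27 CPM, overlapped too.

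Genes of the integrated stress response were higher in mutant hearts as a list, with single amino acid and one-carbon enzymes among its smallest p-values. This response slows translation and raises the transcription factor ATF4, which turns on genes for amino acid synthesis, transport and tRNA loading. Of 46 list genes 43 were tested, with 33 higher and 10 lower (median 0.23), 6 with an unadjusted p under 0.05 and 6 above all controls in every mutant. None was below all controls. Among all genes tested, 1.13% were higher with an unadjusted p under 0.05 and 3.29% lay above all controls. The list median was 0.31 in the RNeasy libraries alone and 0.11 in the libraries with Xist alone, the lowest of all alternatives. Asns (ENSMUSG00000029752, chr6:7675169-7693254, minus strand), asparagine synthetase, was at 2.61, 3.87 and 8.33 CPM in controls and 23.7, 14.2 and 28.1 CPM in mutants. Each mutant exceeded the highest control, at a 4.48-fold higher level (log2 difference 2.16 ± 0.45, SE, unadjusted p = 0.000615). The edgeR adjusted p of Asns was 1, and it ranged from 2.59e-06 to 1 over the alternatives. Chac1, which breaks down glutathione, was nearly silent in controls, with 3, 0 and 3 counts, and had 18, 13 and 19 counts in the mutants (unadjusted p = 0.00117). Trib3, a pseudokinase that restrains ATF4, was at 5.49, 6.81 and 2.40 CPM in controls and 11.6, 18.7 and 9.93 CPM in mutants (1.45 ± 0.43).

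The serine, glycine and folate enzymes of this list were higher in 6 of 7 genes (median 0.20). Psat1 was counted as higher at a log2 difference of 0.0015 ± 0.32 (SE). Psph stood at 0.20 ± 0.27, Shmt2 at 0.15 ± 0.22 and the lower gene Mthfd1l at −0.07 ± 0.33. The groups overlapped in each of these genes. Phgdh, which commits glycolytic carbon to serine synthesis, had 12, 2 and 10 counts in controls and 53, 17 and 56 counts in mutants. The groups did not overlap (log2 difference 2.43 ± 0.57, SE), and the pseudogene Phgdh-ps1 could share its reads. Aldh1l2, a mitochondrial folate enzyme, was at 7.84, 7.55 and 7.53 CPM in controls and 25.1, 10.8 and 25.5 CPM in mutants. Mutant 2 was the lowest mutant yet above the 3 nearly equal controls (1.43 ± 0.36). Mthfd2, the mitochondrial methylene-tetrahydrofolate dehydrogenase, was at 13.7, 17.5 and 26.7 CPM in controls and 81.7, 25.0 and 87.5 CPM in mutants, and mutant 2 lay within the control range (1.75 ± 0.45). Pck2, the mitochondrial phosphoenolpyruvate carboxykinase, and Bcat2, the mitochondrial branched-chain aminotransferase, lie outside the list and were among the 12 higher genes with the smallest p. Pck2 was at 22.3, 17.5 and 15.5 CPM in controls and 25.9, 54.1 and 37.7 CPM in mutants (1.08 ± 0.31), and Bcat2 at 27.6, 29.3 and 32.2 CPM against 43.1, 64.8 and 53.1 CPM (0.85 ± 0.25).

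The 5 tested asparagine, proline, alanine and cysteine genes, with Asns and Chac1 among them, had 3 higher and 2 lower members (median 0.07). Their other members were Aldh18a1 (−0.17 ± 0.30), Pycr1 (−0.03 ± 0.47) and Gpt2 (0.07 ± 0.33), all with overlapping groups. The 5 tested amino acid transport genes had 3 higher and 2 lower members (median 0.27). The 3 tested secreted factors were all higher (median 0.81) with overlapping groups. The 12 tRNA synthetases had 9 higher and 3 lower members and a median of 0.09. Among the 11 regulators 9 were higher (median 0.35), yet Atf4 itself was at 217, 179 and 170 CPM in controls and 139, 198 and 118 CPM in mutants, overlapping and not higher. ATF4 is controlled largely at translation, which mRNA tags do not measure. Atf3, the other lower regulator, was at 1.96, 13.1 and 6.09 CPM in controls and 1.53, 6.5 and 0.788 CPM in mutants. Its groups overlapped, with a log2 difference of −1.29 ± 0.80 (SE). Ddit3, the stress factor CHOP, overlapped as well, at 23.9 to 38.8 and 35.3 to 50.8 CPM. The cystine transporter gene Slc7a11 and the hormone gene Fgf21 were too low to test.

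The promoters of Asns and Chac1 are shown because these were the list's 2 genes with the smallest p and each holds the composite C/EBP-ATF element, spelled here as TGATGNAA on either strand. Both windows are the 250 bases before the start in RefSeq (GRCm38.p6), written 5′ to 3′ along the gene, with the matches in capitals. The Asns window is chr6:7693210-7693459 (minus strand) and its match begins 23 bases before the start. The Chac1 window is chr2:119350992-119351241 (plus strand) and its match, 193 bases before the start, is on the reverse strand.
Asns: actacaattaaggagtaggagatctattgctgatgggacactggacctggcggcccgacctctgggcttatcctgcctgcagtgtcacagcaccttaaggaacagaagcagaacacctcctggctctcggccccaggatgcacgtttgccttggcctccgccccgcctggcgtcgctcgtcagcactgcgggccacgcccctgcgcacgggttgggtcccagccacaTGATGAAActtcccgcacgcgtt
Chac1: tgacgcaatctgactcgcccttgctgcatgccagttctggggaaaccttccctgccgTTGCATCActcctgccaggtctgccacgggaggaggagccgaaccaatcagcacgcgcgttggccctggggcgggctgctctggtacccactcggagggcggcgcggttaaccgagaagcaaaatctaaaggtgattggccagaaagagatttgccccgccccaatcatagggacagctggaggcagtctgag
A window was at hand for 36 of the 43 tested list genes, and 8 of the 36 (22.2%) hold the motif, against 194 of 9773 tested genes (1.99%). The other 6 were Aars (log2 difference 0.03 ± 0.22, SE), Atf3 (−1.29 ± 0.80), Gars (0.10 ± 0.26), Nupr1 (0.23 ± 0.73), Pycr1 (−0.03 ± 0.47) and Tars (0.01 ± 0.24), all with overlapping groups. The list was drawn up from known ATF4 targets, so this share describes the list and not these hearts.

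Cholesterol synthesis and uptake genes were lower in the mutant hearts. Cells make cholesterol from acetyl-CoA through mevalonate and squalene or take it up from lipoproteins, and the factor SREBP2 (gene Srebf2) turns both on when membrane sterol is low. Of 25 list genes 22 were tested, with 4 higher and 18 lower and a median of −0.60. All 6 genes with an unadjusted p under 0.05 were lower, and 6 genes lay below all controls in every mutant. The shares over all genes tested were 1.41% lower with such a p and 3.18% below all controls. The list median was −0.69 in the RNeasy libraries alone, −0.23 in the libraries with Xist alone and −0.20 with Xist level as a covariate. Control 2 was the lowest control for Srebf2, Sqle, Cyp51 and Msmo1. It is the only control with Xist and also a TRIzol library with carried-over tissue, and the part of each was not tested.

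Srebf2 was at 89.6, 57.4 and 70.6 CPM in controls and 43.5, 49.0 and 35.0 CPM in mutants, without overlap (−0.77 ± 0.26). The uptake and control genes were lower in 4 of 4 tested members (median −0.84).

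Of the 7 tested genes of the mevalonate branch 5 were lower (median −0.50), and none separated the groups. From squalene to cholesterol 9 of 11 were lower (median −0.56). Sqle, squalene epoxidase, was at 22.1, 11.4 and 17.0 CPM in controls and 11.1, 5.69 and 5.36 CPM in mutants (−1.18 ± 0.38). Cyp51, lanosterol demethylase, was at 52.4, 40.1 and 51.6 CPM in controls and 28.0, 24.6 and 25.2 CPM in mutants, well apart (−0.89 ± 0.24). Msmo1, an enzyme that acts at the sterol carbon-4 position, was at 32.4, 30 and 34.6 CPM in controls and 20.7, 14.6 and 13.9 CPM in mutants (−0.98 ± 0.26). The sterol element TCACNCCAC was in 1 of the 15 list promoters at hand (Hmgcs1, 6.67%) and in 0.87% of tested genes. That share, too, describes the list and not these hearts.

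**Figure D4:**
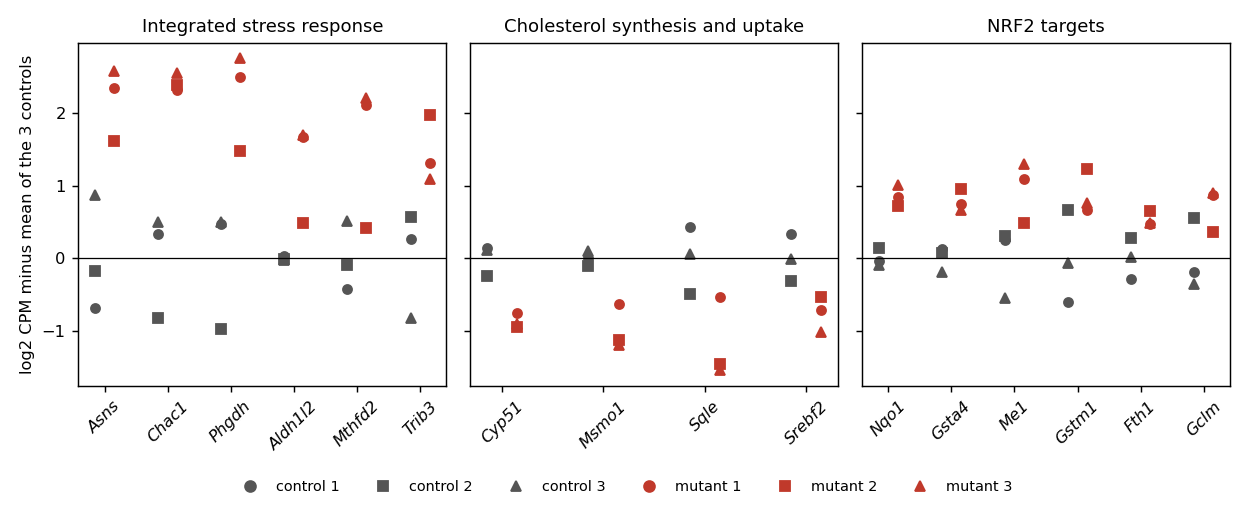
Log2 difference of each library from the control mean for 6 genes of the integrated stress response list, 4 of the cholesterol list and 6 of the NRF2 list, taken from those with the smallest p. Cyp51 mutants cluster between −0.76 and −0.95, while Mthfd2 mutants spread from 0.42 (mutant 2) to 2.21 (mutant 3).

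NRF2 target genes, which supply glutathione, quinone reductases, ferritin and NADPH under oxidative or electrophile stress, were higher in 20 of 28 tested members and lower in 8 (33 listed, median 0.28). All 7 with an unadjusted p under 0.05 were higher, and 5 were above all controls in every mutant. Beside these counts, 1.13% of all genes tested were higher with such a p and 3.29% lay above all controls. The list median was 0.48 in the RNeasy libraries alone and 0.23 in the libraries with Xist alone. Nqo1, the quinone reductase often used as the readout of NRF2, was at 16.2, 18.4 and 15.5 CPM in controls and 30.1, 27.6 and 34.0 CPM in mutants. The groups were well apart, at a 1.83-fold higher level (log2 difference 0.87 ± 0.24, SE). Gsta4, a glutathione transferase for lipid peroxidation products, was at 34.1, 32.8 and 27.4 CPM in controls and 52.6, 61.0 and 49.6 CPM in mutants (0.79 ± 0.23). Me1, malic enzyme, was at 36.1, 37.6 and 20.7 CPM in controls and 65.0, 42.7 and 75.2 CPM in mutants (0.96 ± 0.31), with mutant 2 just above the controls.

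Among the 9 tested glutathione genes 8 were higher (median 0.42), and of the 3 tested iron and haem genes 2 were (median 0.52). The other named roles stood near 0. The 5 quinone and carbonyl genes had 3 higher and 2 lower members (median 0.08). The 5 NADPH supply genes also had 3 higher and 2 lower (median 0.01), and the 4 thioredoxin genes 3 higher and 1 lower (median 0.08). Gstm1 was at 57.4, 138 and 83.1 CPM in controls and 138, 204 and 148 CPM in mutants (0.82 ± 0.32), and it was only 0.23 in the libraries with Xist alone. Gclm, a subunit of the enzyme that starts glutathione synthesis, overlapped through control 2 (20.1, 33.9 and 17.9 against 42.6, 29.7 and 43.2 CPM, 0.69 ± 0.30) and was 0.17 in that same subset. Fth1, the ferritin heavy chain that stores iron, was at 1062, 1580 and 1310 CPM in controls and 1805, 2043 and 1816 CPM in mutants (0.52 ± 0.22), and it was 0.25 in the libraries with Xist alone. Red-cell markers (17 genes) summed to 17278, 74488 and 22513 CPM in controls and 53860, 48969 and 61541 CPM in mutants, so blood content also differed, and its part in the ferritin value was not tested. Hmox1, a haem oxygenase that NRF2 also drives, overlapped at 8.49 to 26.0 and 13.2 to 24.0 CPM. The antioxidant element TGACNNNGC was in 6 of 23 NRF2 list promoters at hand (26.1%) and in 12.2% of tested genes. The 6 were Abcc4 (log2 difference 0.96), G6pdx (0.48), Gclm (0.69), Gsta3 (−0.09), Mgst1 (0.59) and Prdx1 (0.004). The list is one of NRF2 targets, so this share describes the list and not these hearts.

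Ferroptosis genes as a list stood near 0, with 9 of 15 tested members higher and 6 lower (median 0.09, −0.02 without control 2). Acsl4, which loads membranes with oxidisable lipids, overlapped at 19.6 to 54.0 and 15.2 to 37.9 CPM. The 2 genes of this list with an unadjusted p under 0.05 were Chac1 and Fth1, both higher and shared with the lists above. Sat1, a polyamine enzyme, was above all controls, at 6.25 to 8.65 and 9.15 to 12 CPM.

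Several genes outside these lists separated the groups. Igfbpl1, an insulin-like growth factor binding protein relative, was at 25.3, 20.8 and 29.8 CPM in controls and 10.3, 6.30 and 7.09 CPM in mutants. It was 3.19-fold lower (log2 difference −1.67 ± 0.30, SE), with −1.90 in the RNeasy libraries alone and −1.40 in the libraries with Xist alone. Its DESeq2 adjusted p was 0.00373, in a range of 0.00113 to 1. Mgll, the lipase that splits monoacylglycerols, was nearly constant in controls at 225, 212 and 214 CPM and was 133, 110 and 110 CPM in mutants. That is a 1.84-fold lower level (−0.88 ± 0.20), and it was −0.85 in the RNeasy libraries alone and −0.86 in the libraries with Xist alone.

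Apln, the peptide apelin that raises cardiac contractility, was at 22.9, 12.2 and 26.9 CPM in controls and 8.74, 4.47 and 3.31 CPM in mutants (log2 difference −1.89 ± 0.43, SE). Apln is X-linked, and it was −1.14 in the libraries with Xist alone. Apold1, an early-response gene of the vessel wall, was at 32.7, 72.2 and 38.4 CPM in controls and 14.7, 16.5 and 20.8 CPM in mutants (−1.46 ± 0.33). The 12 endothelial markers had 7 higher and 5 lower members (median 0.04), and none was below all controls. Their sum was 1527 to 1916 CPM in controls and 1636 to 1722 CPM in mutants, so the groups overlapped in this sum. Slc20a1, a sodium-phosphate transporter, was at 42.1, 44.4 and 60.4 CPM in controls and 26.5, 26.4 and 27.7 CPM in mutants (−0.86 ± 0.24). Ppp1r1b, an inhibitor of protein phosphatase 1, was at 34.4, 19.1 and 36.0 CPM in controls and 15.1, 14.2 and 8.19 CPM in mutants (−1.26 ± 0.34), and its difference was −0.63 in the libraries with Xist alone.

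On the higher side, Trim54, a RING-finger protein of the sarcomere, was at 8.75, 26.5 and 7.37 CPM in controls and 32.2, 43.7 and 51.5 CPM in mutants. Control 2 was closest to the mutants, and the log2 difference of 1.59 ± 0.45 (SE) was 0.67 in the libraries with Xist alone. Pir, an iron-binding nuclear protein whose gene is X-linked, was at 3.40, 3.68 and 1.6 CPM in controls and 10.5, 7.93 and 7.41 CPM in mutants (1.57 ± 0.41). Htatip2, an oxidoreductase, was at 10.2, 9.94 and 7.37 CPM in controls and 17.2, 20.5 and 20.2 CPM in mutants (1.07 ± 0.28). Ccdc28a was at 5.23, 4.97 and 2.88 CPM in controls and 9.85, 12.8 and 9.46 CPM in mutants (1.29 ± 0.36). Bbc3, the apoptosis activator PUMA, was at 10.5, 14.4 and 12.3 CPM in controls and 19.1, 38.0 and 18.9 CPM in mutants (1.03 ± 0.34), while its p53 list had 5 higher and 9 lower genes and a median of −0.06.

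The contractile genes differed little in their median. Of 30 sarcomere and calcium-handling genes 14 stood higher and 16 lower (median −0.04). In every mutant 3 lay below all controls and 1 above, against 3.18% and 3.29% of all genes tested. Their sum did not overlap, at 89720, 87047 and 92635 CPM in controls and 75413, 85128 and 80674 CPM in mutants. Of the 7 thin filament genes 6 were lower (median −0.14). Acta1, skeletal actin, which the fetal and stressed heart expresses, was at 190, 125 and 147 CPM in controls and 271, 236 and 211 CPM in mutants, without overlap (log2 difference 0.64 ± 0.23, SE). Actc1, cardiac actin, was at 13709, 13079 and 14965 CPM in controls and 12307, 9975 and 9090 CPM in mutants (−0.41 ± 0.21). Atp2a2, the calcium pump SERCA2, was at 2141, 2114 and 2266 CPM in controls and 1721, 1671 and 1759 CPM in mutants, close within each group and apart between them (−0.34 ± 0.19). The adult-type myosin Myh6 and the fetal-type myosin Myh7 overlapped, at 2756 to 5509 and 2199 to 3828 CPM and at 874 to 2802 and 1815 to 4087 CPM.

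Of 14 genes of cardiac strain 6 were higher and 8 lower (median −0.08, 0.30 without control 2). The natriuretic peptide gene Nppa, which the stretched atrium secretes, was at 3367, 6818 and 3373 CPM in controls and 4017, 9175 and 5062 CPM in mutants. Control 2 lay above 2 of the mutants, and the log2 difference of 0.43 ± 0.37 (SE) turned to −0.17 in the libraries with Xist alone. Nppb followed the same library order within groups, at 35.3, 232 and 40.7 against 49.8, 222 and 87.0 CPM.

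DNA replication genes were lower in 13 of 13 cases (median −0.73), but this followed the library choice. The median was −1.27 in the RNeasy libraries alone and −0.12 in the libraries with Xist alone, with 6 higher and 7 lower. Cdt1, which licenses replication origins, was at 37.4, 23 and 41.6 CPM in controls and 21.8, 14.0 and 12.8 CPM in mutants (log2 difference −1.07 ± 0.32, SE). Mcm2, a subunit of the replicative helicase, was at 58.0, 25.8 and 64.9 CPM in controls and 37.0, 10.6 and 12.9 CPM in mutants (−1.29 ± 0.49). Ung, which removes uracil from DNA, was at 50.6, 34.8 and 76.9 CPM in controls and 29.4, 21.7 and 22.5 CPM in mutants (−1.14 ± 0.32). In all 3 genes control 2 was the lowest control, and its Xist level, kit label and carried-over tissue cannot be told apart here. All 31 cell cycle genes had a median of −0.31, and 0.22 without control 3. The 18 mitosis genes among them were divided, 8 higher and 10 lower.

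**Figure D5:**
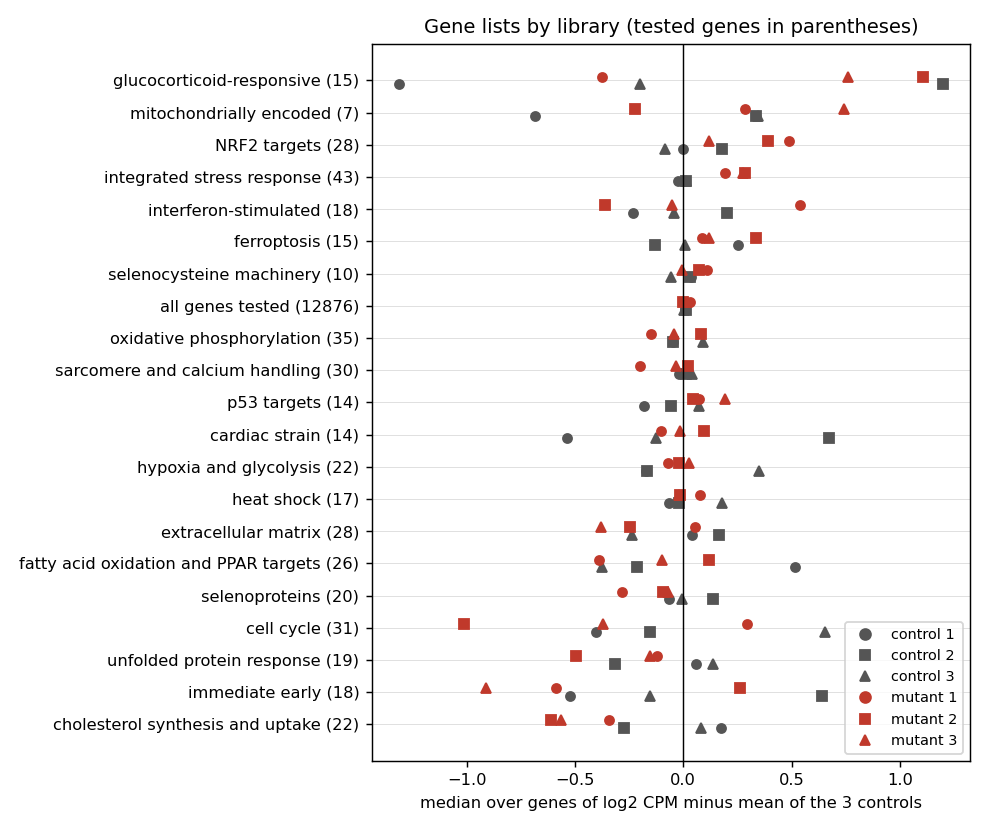
Median log2 difference from the control mean over each list's tested genes, 1 point per library for the 3 controls and 3 mutants. In the cholesterol list all 3 mutants, at −0.34, −0.61 and −0.56, lie below the controls at 0.18, −0.27 and 0.08, and in the integrated stress response list the mutants, at 0.19, 0.28 and 0.28, lie above the controls at −0.02, 0.01 and 0.01.

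Energy metabolism gave small or unstable list values. Nuclear genes of oxidative phosphorylation (35 tested) had a median of −0.03, with 13 higher and 22 lower, and the median was 0.05 in the libraries with Xist alone. Of the 13 mitochondrially encoded genes 7 were tested, with 5 higher (median 0.31, −0.01 in the RNeasy libraries alone). Among them mt-Co1, a subunit of cytochrome oxidase, was at 702, 1338 and 1227 CPM in controls and 1535, 1559 and 2293 CPM in mutants (log2 difference 0.72 ± 0.29, SE). Fatty acid oxidation genes were lower in 21 of 26 cases (median −0.23), but this rested on control 1, since the median was 0.10 without control 1 and 0.14 in the RNeasy libraries alone. Glycolysis and hypoxia genes had a median of −0.10, with Gpi1, which isomerises glucose phosphate, at 319, 241 and 350 CPM in controls and 464, 485 and 378 CPM in mutants (0.54 ± 0.22).

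Unfolded protein response genes were lower in 15 of 19 cases (median −0.36, 0.07 in the libraries with Xist alone), with the lumenal chaperone Hspa5 at 588, 493 and 792 CPM in controls and 495, 349 and 472 CPM in mutants. Heat shock genes were mixed, 7 higher and 10 lower (median −0.12, 0.08 in the libraries with Xist alone). Immediate early genes were lower in 17 of 18 cases (median −0.53), yet the median was 0.10 without control 2. Nr4a3, an early-response receptor, was at 1.96, 8.65 and 4.64 CPM in controls and 0.971, 1.22 and 1.89 CPM in mutants (log2 difference −1.87 ± 0.60, SE). Glucocorticoid-responsive genes had 10 higher and 5 lower members (median 0.35, −0.06 without control 1 and −0.48 in the libraries with Xist alone). Sult1a1, a sulfotransferase of that list, overlapped (1.36 ± 0.59). Interferon-stimulated genes had a median of 0.13, which turned to −0.05 without control 1 and −0.11 without mutant 1.

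Extracellular matrix genes were lower in 23 of 28 cases (median −0.20), and the median was 0.03 in the RNeasy libraries alone. Col8a1, a short-chain collagen of vessels and valves, was at 12.8, 5.16 and 3.68 CPM in controls and 3.61, 3.25 and 1.42 CPM in mutants (log2 difference −1.39 ± 0.55, SE). Control 1 was far above the others, and the difference was −0.68 without control 1 and −0.41 in the RNeasy libraries alone. Fibroblast markers summed to 4222 to 5826 CPM in controls and 3881 to 5288 CPM in mutants. The cartilage collagens Col2a1 (59.1, 120 and 3.04 against 1.80, 0.61 and 0.473 CPM) and Col9a3 (9.41, 23 and 1.92 against 1.25, 1.02 and 1.58 CPM) and the airway secretoglobin Scgb3a1 (2467, 986 and 0.801 against 4.16, 2.85 and 1.26 CPM) were high in controls 1 and 2 alone. They were treated as carried-over tissue and not as an effect of genotype.

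Newborn cortex libraries of the same genotypes, 3 per group, were used to ask whether the heart differences were unlike those of another organ. Xist had a log2 difference of 1.22 in cortex, so the cortex groups were not matched in Xist either. Its part in the values shared by both organs was not tested. In cortex edgeR called 0 of 13694 genes, and 287 (2.1%) had an unadjusted p under 0.05. The difference between the organs was tested as an interaction over 15157 genes, and edgeR called 0. Without adjustment 371 genes (2.45%) had a p under 0.05. DESeq2 called 0 of 15145. The adjusted p of the interaction was 1 for every gene named in this comparison.

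Selenow and Selenoh were lower in both organs. Selenow was −0.998 ± 0.17 (log2 difference ± SE) in cortex against −1.91 ± 0.29 in heart, and the heart-minus-cortex term was −0.88 ± 0.33 (unadjusted p = 0.0172). Selenoh was −0.75 ± 0.15 in cortex, with a term of −0.83 ± 0.30. Gpx1 was −0.95 ± 0.17 in cortex and −0.51 in heart, with a term of 0.47 ± 0.38. Sephs2 was 0.59 ± 0.18 in cortex and 0.57 in heart. Apln was −1.42 ± 0.42 in cortex, with a term of −0.46 ± 0.62. These 5 genes had the same sign in both organs.

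Asns was 0.08 ± 0.16 in cortex, and its heart-minus-cortex term was 2.10 ± 0.49 (unadjusted p = 0.000607). Aldh1l2 was −0.03 ± 0.23 in cortex, with a term of 1.48 ± 0.43, and Mthfd2 was 0.18 ± 0.27 there. Chac1 and Phgdh stood above 0 in cortex too, at 0.66 ± 0.33 (term 2.44 ± 0.76) and 0.61 ± 0.43 (term 1.83 ± 0.75). Among the NRF2 targets, Gstm1 was 0.72 ± 0.25 in cortex and 0.82 in heart (term 0.12 ± 0.45). Nqo1, Gsta4, Me1, Fth1 and Gclm stood at 0.05 to 0.12 in cortex. Msmo1 was 0.17 ± 0.29 in cortex (term −1.13 ± 0.41), Mgll 0.20 ± 0.25 (term −1.06 ± 0.34) and Igfbpl1 −0.17 ± 0.29 (term −1.48 ± 0.41). The list medians in cortex were 0.05 for the integrated stress response, 0.07 for cholesterol, 0.01 for NRF2 targets and −0.75 for the mRNAs that follow selenium supply. Beside these stand 0.23, −0.60, 0.28 and −0.97 in heart.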

How the data were processed

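Per the labels, the 6 hearts were profiled as 3′-end RNA libraries, and the series' design text calls the replicates mice. Per the submitters' processing notes, STAR and the genome build GRCm38 were used; no source used here gives the STAR version, the counting tool, its annotation or its treatment of shared or multi-mapped reads. The authors deposited raw read counts, 1 value for each Ensembl gene in each library (55416 IDs, of which 52083 matched a GENCODE M21 symbol and 3333 did not).

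Libraries were grouped by the labelled age, tissue and genotype. Genes kept by filterByExpr (12876) were tested with the edgeR 4.0.16 quasi-likelihood F test in R 4.3.3, with TMM normalization and 4 residual degrees of freedom. Benjamini-Hochberg adjustment was over all genes, with a threshold of 0.05. A prior count of 2 was used for the log2 CPM of single libraries, not in the test. The SE is the size of the log2 difference divided by the square root of F. The scripts were tested on simulated data. Alternatives were RLE scaling, DESeq2 1.42.0, limma-voom (limma 3.58.1), no filter or a mean count of at least 10, haemoglobin and mitochondrial or airway and cartilage genes left out, a replicate block, each library left out, the kit as a factor, RNeasy libraries alone, Xist level as a covariate, 1 fit with cortex and an adjusted p under 0.10. The libraries with Xist alone, and control 1 and mutant 2 left out together, were chosen after the data were seen.

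Named genes were Sepsecs, Gpx4 and the selenoproteins, the 12 higher and 12 lower genes of smallest p whose groups do not overlap (no clone names, airway, cartilage or sex genes), up to 6 per list by p, further members by role, and genes DESeq2 called; some are not reported here. Members and lists were chosen with earlier results of these data known. Lists were described by counts and medians with no test. Coordinates are GRCm38.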

Additional observations from a re-analysis of the deposited data

How the results depend on the processing

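The edgeR count of 0 genes stayed at 0 with RLE scaling, limma-voom, a mean count of at least 10, the kit as a factor, Xist level as a covariate, haemoglobin and mitochondrial or airway and cartilage genes left out, and an adjusted p under 0.10. It was 2 in 1 fit with cortex (Selenow and Selenoh, adjusted p 0.014), 10 with DESeq2, 2 in the RNeasy libraries alone (Xist and Gm16399), 1 with control 1 and mutant 2 left out together, 5 in the libraries with Xist alone and 118 with no count filter (38 higher, 80 lower). Of the 118 genes, 59 are ones that the filter removes. Leaving out 1 library gave 0 to 3 genes, with 1 without mutant 2, 2 without control 2 and 3 without control 3. In the RNeasy and Xist subsets the lone control was assumed to vary like the mutants. Heart against cortex gave 42 genes with no count filter, 0 to 2 with 1 library left out (2 without heart control 3) and 0 with RLE scaling or DESeq2.

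The libraries' numbers are not stated to pair the mice. Same-number libraries had residual correlations of −0.164, −0.0486 and 0.195. Residuals from a mean of 3 libraries depend on each other within a group, so these values cannot decide whether mice were paired. With the replicate number as a block the heart count was 2 (Col2a1 and Scgb3a2) and the organ count 0, and Txnrd1 was 0.045.

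Of 68 genes followed over the alternatives, 59 kept their sign in all of them and 9 did not. With Xist level as a covariate and in the libraries with Xist alone, Sepsecs was −0.16 and −0.21, Gpx4 0.15 and 0.14, Selenop −0.27 and −0.37, and Txnrd1 0.55 and 0.59. Nppa was −0.17 in the libraries with Xist alone. With control 1 and mutant 2 left out together, Selenoo was −0.12, Selenop −0.089, Txnrd1 0.027, Txnrd3 −0.072 and Nppa −0.17. In the RNeasy libraries alone and with the kit as a factor, Selenoi was 0.10 and 0.093 and Scgb3a1 1.77 and 1.77. Txnrd1 was 0.047 with limma-voom and 0.025 with no count filter. With 1 library left out the range was −0.0024 to 0.24 for Sepsecs, −0.21 to 0.081 for Gpx4, −0.052 to 0.50 for Selenop, −0.24 to 0.41 for Txnrd1, −0.10 to 0.29 for Txnrd3 and −0.0016 to 0.85 for Nppa. The cause was not tested. Of 23 lists, 7 kept the sign of their median throughout, and the other 16 changed it in at least 1 alternative.

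The comparison has 3 libraries per group and 4 residual degrees of freedom, and each kit or Xist subset keeps 1 control. Chac1 and Phgdh rest on few counts in the controls.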

Other observations

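Some values stood apart in a single library of the 6 and were noticed after the data were seen. Hspa8, a constitutive chaperone that most cells use, was at 81.8, 0.184 and 89.7 CPM in controls 1 to 3 and 72.1, 88.0 and 78.0 CPM in mutants 1 to 3. The value of control 2 was 1 count. Gm11942 was at 2.61 CPM in control 1, which is 20 counts, and at 993 and 1081 CPM in controls 2 and 3 and 1193, 1400 and 937 CPM in the mutants. Mutant 2 carried lung surfactant transcripts of another kind than controls 1 and 2. Its surfactant gene Sftpc was at 288 CPM, against 32.1 CPM in control 1, while its airway gene Scgb3a1 was at 2.85 CPM against 2467 CPM there. Blood-cell markers also varied among the libraries. Neutrophil markers summed to 107, 125 and 98.8 CPM in controls and 130, 162 and 120 CPM in mutants, and macrophage markers to 234, 251 and 161 CPM against 217, 401 and 194 CPM, both highest in mutant 2.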
